A study of Mus musculus with 12 samples.

Results

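The genes described here are 35 markers of the B cell lineage, taken as a list of symbols, out of 35907 genes with a value. They were grouped by role into the B cell receptor with its kinases and adaptors (6 genes), surface co-receptors, Fc receptors and inhibitors (10), transcription factors (6), TNF receptor family members (3), Toll-like receptor partners (2), marginal zone and other surface genes (6), and a last pair, Vpreb3 and Ralgps2. All 35 passed the filter on low counts at both stages of the experiment, so no member was lost from any test. Several of them are not B cell genes alone. Bach1 is a broadly expressed repressor, and Pou2f2, Cd9, Cd38, Cd1d1, Dtx1 and Plac8 are used by T cells or other blood cells as well.

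B cells signal through surface immunoglobulin joined to the paired chains Cd79a and Cd79b, which signal through kinases such as Blk and Btk and adaptors such as Blnk. Pax5 and Ebf1 set the B cell programme, and co-receptors such as Cd22, Cr2 and the IgE receptor Fcer2a tune the response. Mature splenic B cells are mainly follicular cells, rich in Fcer2a, or marginal zone cells, rich in Cr2 and Cd1d1. Activated B cells can form germinal centers, and plasma cells secrete antibody. T cells do not use most of these genes.

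The study asked how the T cell transcription factor TCF-1 shapes donor CD4 T cells in allogeneic transplantation. Bulk RNA was sequenced from 12 libraries in 4 groups of 3, and the study describes the mice of each genotype before transplant as different animals. Donors were WT mice or TCF-1 cKO mice, in which a floxed TCF-1 gene (labelled TCF-7 cKO) is deleted by a CD4-driven Cre, so that all T cells lose it from the stage of thymic development that expresses both CD4 and CD8 onward. Donor mice were on a C57BL/6 background and 8 to 12 weeks old. The Pre-Tx libraries hold cells sorted from donor spleens. The Post-Tx libraries hold donor cells sorted from the spleens of lethally irradiated BALB/c recipients at day 7. The recipients had been given 1000000 donor CD3 T cells. The paper's results name H2Kb, CD3, CD4 and CD8 as the markers of that sort. In its transplants, recipients of either donor genotype also received T cell-depleted bone marrow from WT C57BL/6 mice, which is of the same H2Kb type. The labels call every library CD4 T cells, whereas the deposited design text names CD8 cells before transplant and both CD4 and CD8 cells afterwards.

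The libraries held 17103415 to 49486745 estimated counts each, and replicates correlated with Pearson r of 0.921 to 0.977. The gene that was deleted, Tcf7, lay at 136 to 178 normalised CPM (counts brought to a common library size within a stage) in TCF-1 cKO Pre-Tx, 125 to 181 in WT Pre-Tx, 102 to 127 in TCF-1 cKO Post-Tx and 177 to 187 in WT Post-Tx. A value for the whole gene does not show the loss of the floxed part alone, so it does not check the labels. The Pre-Tx libraries went against their T cell label: all 35 B cell lineage genes were at 1 CPM or more in every one of the 6 libraries. There they took 1.56% to 1.60% of the counts in TCF-1 cKO and 1.05% to 1.27% in WT, while 12 T cell markers together took 0.158% to 0.339% across both genotypes. At day 7 the order was turned: the B cell lineage genes took 0.0726% to 0.0923% of the counts and the T cell markers 0.562% to 0.886%. Of these markers, Cd4 was at 65.3 to 155 normalised CPM before transplant and 579 to 1412 at day 7. Cd8a was at 71.3 to 171 and 1.22 to 14.5, and Cd8b1 at 222 to 333 and 19.6 to 39.9. Which T cells the libraries hold was not tested. In bulk RNA, fewer B cells and less RNA per B cell cannot be told apart.

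Before transplant the receptor chains dominated. By TPM, which divides by transcript length and so compares genes, Cd79b led in TCF-1 cKO with 2525 ± 92.1 (SD, n = 3) and Cd79a followed with 1812 ± 24.4, which was 22.5% and 16.1% of the TPM of the 35 genes. In WT Cd79b was at 2212 ± 308 TPM and Cd79a at 1817 ± 163, and their libraries overlapped. The IgM receptor Fcmr came next, at 1099 ± 113 TPM in TCF-1 cKO and 612 ± 102 in WT. Next in both genotypes was Plac8, at 813 ± 158 and 372 ± 53.8 TPM. Plac8 was followed by Ly86 in TCF-1 cKO (395 ± 63.1 TPM) and Vpreb3 in WT (260 ± 24.7 TPM). The libraries of Fcmr and Plac8 overlapped in TCF-1 cKO but not in WT. Further down, most neighbours overlapped, as Ly86 and Ms4a1 did in TCF-1 cKO. The exceptions were Siglecg over Cd40, Cd38 over Btk, Btk over Cd1d1, Ebf1 over S1pr3 and Fcrl5 over Bach1 in TCF-1 cKO, and Cd180 over Bach1 in WT.

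**Figure D1:**
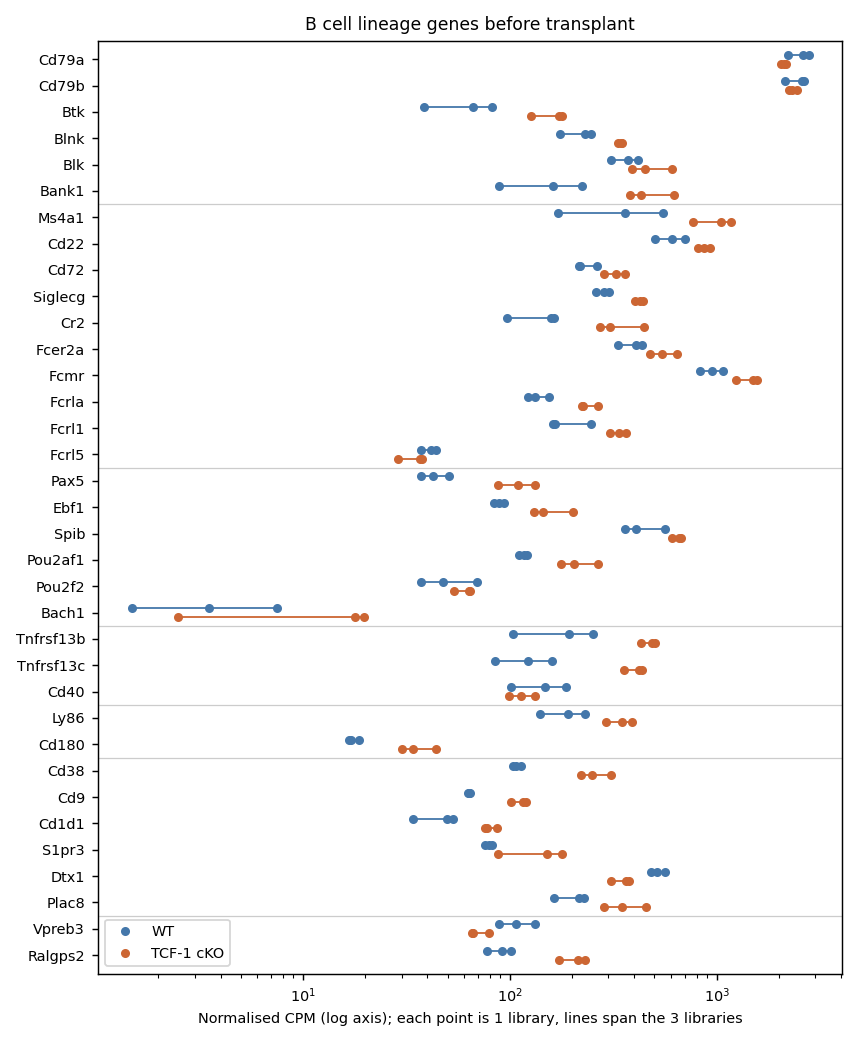
Normalised CPM of the 35 genes before transplant on a log axis, where each library is 1 point, a line over the 3 libraries of a group, and horizontal rules between the gene roles. The TCF-1 cKO points lay above all WT points for 26 genes and below all of them for Cd79a, Dtx1 and Vpreb3.

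The first comparison was TCF-1 cKO against WT before transplant. In it, 16 of the 35 genes rose in TCF-1 cKO and 0 fell, where rising or falling means an adjusted p under 0.05 from edgeR's quasi-likelihood test with Benjamini-Hochberg adjustment over all 17021 genes. The BAFF receptor Tnfrsf13c, Bank1, Ms4a1 (CD20), Tnfrsf13b (TACI), Btk and Pax5 were among the genes that rose most, while the receptor chains Cd79a and Cd79b did not pass. Of all genes tested, 8.52% rose and 5.65% fell (14.2% in all). At an unadjusted p under 0.05, 26 members were higher and 2 lower. DESeq2 called 22 higher and 0 lower, and limma voom 19 higher and 1 lower, Dtx1. Of all genes, DESeq2 called 23.9% and limma voom 13.5% in either direction. The median log2 fold change was 0.81 over the 35 genes and -0.11 over all genes. Every TCF-1 cKO library lay above every WT library for 26 members, against 20.4% of all genes, and below for 3, against 20.5%. The count rested on few libraries: 8, 9 and 10 genes rose without TCF-1 cKO replicate 1, 2 or 3, and 9 without WT replicate 3. Calls over all genes were fewer in these fits too, at 2.72%, 5.09%, 6.48% and 5.44% in the same order. Without WT replicate 2, 14 members rose and 14.0% of all genes were called. Without WT replicate 1, 0 members rose. In that last fit 23 members were higher and 2 lower at an unadjusted p under 0.05, a threshold at which all genes were not counted. At the adjusted threshold that fit called only 0.0790% of all genes. P-values measure the spread between these libraries, which the labels call biological replicates.

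Values below are normalised CPM in the order of replicates 1, 2 and 3, with TCF-1 cKO given first and WT after it, and each fold change is a log2 value with TCF-1 cKO over WT. Within the receptor group, 2 of 6 genes rose. Cd79a was at 2043, 2171 and 2125 in TCF-1 cKO and 2221, 2629 and 2781 in WT, a fold change of -0.27 (SE 0.17, adjusted p = 0.288). Every TCF-1 cKO library was below every WT library, but the test was not passed. Cd79b was at 2235, 2325 and 2434 in TCF-1 cKO and 2129, 2653 and 2593 in WT, with a fold change of -0.08 (SE 0.17, adjusted p = 0.776) and overlapping libraries. For both chains the sign turned in some settings, Cd79a to 0.04 with offsets for GC content and Cd79b to 0.09 with the same offsets. The kinase Btk was at 126, 178 and 173 in TCF-1 cKO against 66.4, 81.6 and 38.4 in WT and rose by 1.36 (SE 0.29, adjusted p = 0.0167). Bank1, a scaffold that couples the receptor to calcium release, was at 619, 431 and 381 against 162, 223 and 88.3 and rose by 1.60 (SE 0.32, adjusted p = 0.0136). In WT, replicate 3 was the lowest library for both genes. The adaptor Blnk was at 347, 334 and 345 against 232, 247 and 175, with a fold change of 0.65 (SE 0.20, adjusted p = 0.0523). Its groups did not overlap, yet it missed the threshold. The Src-family kinase Blk was at 388, 609.6 and 451 against 309.6, 372 and 415, and the groups overlapped.

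Among the co-receptors, Fc receptors and inhibitors, 4 of 10 rose: Ms4a1, Cr2, Fcrla and Fcrl1. Ms4a1, the membrane protein CD20, was at 1167, 1049 and 769 in TCF-1 cKO and 359, 548 and 170.4 in WT, a rise of 1.47 (SE 0.35, adjusted p = 0.0218). The WT libraries differed among themselves, with replicate 3 lowest, and all lay below the TCF-1 cKO libraries. Cr2, the complement receptor CD21/CD35, was at 446, 273 and 304 against 158, 164 and 96.8 and rose by 1.29 (SE 0.27, adjusted p = 0.0155). Fcrla, an intracellular Fc receptor-like protein, was at 223, 267 and 227 against 122, 155 and 133 and rose by 0.81 (SE 0.21, adjusted p = 0.028). The groups of both genes were apart. Fcrl1, a surface relative of the Fc receptors, was at 363, 307 and 338 against 161, 246 and 165 and rose by 0.81 (SE 0.22, adjusted p = 0.0356). The low-affinity IgE receptor Fcer2a was at 641, 478 and 546 against 335, 435 and 408, with a fold change of 0.50 (SE 0.20, adjusted p = 0.107). The inhibitory lectin Cd22 was at 933, 808 and 872 against 501, 703 and 606, with a fold change of 0.53 (SE 0.19, adjusted p = 0.0824). Fcer2a and Cd22 did not overlap between the groups but did not pass. The remaining inhibitors Cd72 and Siglecg, and the IgM receptor Fcmr, likewise had every TCF-1 cKO library above every WT library, with fold changes of 0.47 (adjusted p = 0.122), 0.58 (adjusted p = 0.0547) and 0.60 (adjusted p = 0.0532). Fcrl5 was the exception in its group, at 37.6, 36.6 and 28.9 in TCF-1 cKO and 37.1, 44 and 41.8 in WT, with a fold change of -0.25 (SE 0.28, adjusted p = 0.542).

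Of the 6 transcription factors, 3 rose. Pax5, which commits cells to the B lineage, was at 132, 109.8 and 87.5 in TCF-1 cKO against 37.4, 50.8 and 42.7 in WT and rose by 1.33 (SE 0.26, adjusted p = 0.0126). Ebf1, which acts with Pax5, was at 202, 131 and 144 against 93.3, 88.5 and 84.2 and rose by 0.84 (SE 0.23, adjusted p = 0.0369). The coactivator Pou2af1 (OCA-B) was at 178, 268 and 205 against 111, 118 and 121 and rose by 0.90 (SE 0.22, adjusted p = 0.0249). All 3 had groups that did not overlap. The Ets factor Spib was at 607, 674 and 661 against 359.6, 562 and 408, also without overlap, and its fold change of 0.55 (SE 0.21, adjusted p = 0.0949) missed the threshold. Pou2f2 (Oct-2), the partner of Pou2af1, was at 63.7, 64.2 and 53.8 against 47.3, 37.1 and 69.4 with overlapping groups and a fold change of 0.24 (adjusted p = 0.575). Bach1 had the widest scatter, at 19.7, 2.49 and 17.8 against 7.49, 3.5 and 1.49, and its 1.68 (SE 0.79, adjusted p = 0.158) was not called.

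Both BAFF-binding receptors of the TNF receptor family rose and Cd40 did not. Tnfrsf13c, the receptor for the survival factor BAFF, was at 423, 437 and 358 in TCF-1 cKO and 122, 160.0 and 84.7 in WT. Its rise of 1.73 (SE 0.25, adjusted p = 0.00575) had the smallest adjusted p of the 35 genes. Tnfrsf13b, which binds BAFF and APRIL, was at 488, 505 and 433 against 194, 253 and 103 and rose by 1.37 (SE 0.29, adjusted p = 0.0158). WT replicate 3 was again the lowest library for both receptors. Cd40, the receptor for T cell help, was at 113, 99.4 and 132 against 101, 149 and 186, with overlapping groups and a fold change of -0.34 (SE 0.26, adjusted p = 0.367). Of the Toll-like receptor partners, Ly86 (MD-1) was at 293, 391 and 350.0 against 191, 232 and 139.7 and rose by 0.88 (SE 0.23, adjusted p = 0.0323). Its binding partner Cd180 (RP105) was at 34, 43.9 and 30.2 against 17.1, 16.8 and 18.6, with groups apart and a fold change of 1.04 (SE 0.32, adjusted p = 0.0508).

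Besides Cd79a, the members whose WT libraries all lay above TCF-1 cKO were Dtx1 and Vpreb3. Dtx1, a Notch target, was at 307, 365 and 378 against 484, 515 and 566 in WT, with a fold change of -0.57 (SE 0.19, adjusted p = 0.0612). Vpreb3, a relative of the surrogate light chain, was at 66.4, 65.4 and 79.1 against 89, 107 and 133, with a fold change of -0.64 (SE 0.24, adjusted p = 0.0889). Neither passed, although in both genes every TCF-1 cKO library was below every WT library. Cd38, an ectoenzyme that consumes NAD, was at 309, 249 and 220.4 against 107, 113 and 104 and rose by 1.27 (SE 0.21, adjusted p = 0.00895). The tetraspanin Cd9 was at 101, 116 and 119.6 against 64.4, 63.7 and 63.1 and rose by 0.82 (SE 0.22, adjusted p = 0.0332). Plac8 was at 286, 453 and 349 against 215, 164 and 227 and rose by 0.84 (SE 0.23, adjusted p = 0.0359). In all 3 the groups were apart. The lipid-presenting Cd1d1 was at 77.7, 76.2 and 86.3 against 34.2, 53 and 49.9, with a fold change of 0.81 (SE 0.26, adjusted p = 0.057). S1pr3, a sphingosine-1-phosphate receptor that marginal zone cells carry, had a fold change of 0.82 (adjusted p = 0.0637). Neither was called. Ralgps2, an exchange factor for Ral GTPases, was at 231, 213 and 172 against 92.1, 101 and 77.2 and rose by 1.19 (SE 0.22, adjusted p = 0.0125).

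The fold changes can also be read as ratios within a library, which do not depend on scaling between libraries. The genes were taken for the fold changes given above, so the ratios restate them and are no independent support. For each count of Ms4a1 TCF-1 cKO had 1.75, 2.07 and 2.76 counts of Cd79a, against 6.18, 4.79 and 16.3 for WT. The counts of Cd79a per count of Tnfrsf13c were 4.83, 4.97 and 5.93 against 18.1, 16.4 and 32.8. For Fcer2a per count of Cr2 the values were 1.44, 1.75 and 1.80 against 2.12, 2.66 and 4.21. None of these ratios overlapped between the genotypes.

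Scaling moved the balance of calls. With upper-quartile scaling the median of all genes went from -0.11 to -0.47 and that of the members from 0.81 to 0.46, and 9 members rose while 3 fell (Cd79a, Dtx1 and Vpreb3), against 16 and 0 with the main scaling. When the libraries were scaled to a core of B cell genes, 14 rose and 1, Dtx1, fell. Of all genes, 15.9% were called with upper-quartile scaling and 13.0% with scaling to the core genes. No gene that rose in the main test had a negative fold change in any of the 15 alternatives. Most T cell markers moved the other way: 7 of 12 fell, including Cd3e, Cd3d, Lck and Zap70. The 12 together summed to 1574 to 1738 CPM in TCF-1 cKO and 2634 to 3473 CPM in WT. Cd28 was instead higher in every TCF-1 cKO library, at 40.1, 33 and 33.4 CPM against 20.2, 30 and 13.7 in WT. Cd4 and Cd3g overlapped between the genotypes. Natural killer cell markers summed to 571 to 618 CPM against 211 to 271 CPM, and 3 of 7 rose (Gzma, Ncr1 and Klrb1c). All genes of both lists were at 1 CPM or more in every Pre-Tx library. Olfactory receptor genes summed to 879 to 1550 CPM in TCF-1 cKO and 2532 to 7011 CPM in WT. The part of these other genes in the result was not tested.

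B cell genes outside the members were called higher alone as well, where 8.52% of all genes rose and 5.65% fell. These lists and those below were chosen with earlier results of these data known, so they are no independent support. Foxp1 is also on the follicular list and Irf4 on the plasma cell list. Of 20 further receptor signalling genes, 9 rose and 0 fell, with a median of 0.76, and the leading ones were the kinase Lyn at 1.19 (adjusted p = 0.0104), the phospholipase Plcg2 at 1.03 (adjusted p = 0.0145), Prkcb at 1.28 (adjusted p = 0.0165) and the adaptor Dapp1 at 1.42 (adjusted p = 0.0167). Of 15 further transcription factors and lineage genes tested, 7 rose and 0 fell (median 0.64), led by Foxp1 at 1.22 (adjusted p = 0.0094), Cd24a at 1.46 (adjusted p = 0.0094), Irf4 at 1.52 (adjusted p = 0.0126) and Mef2c at 1.65 (adjusted p = 0.0158).

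In the follicular and marginal zone lists calls were in the higher direction alone, and 2 genes of each list had a negative fold change that was not called. Among 8 follicular genes 3 rose and 0 fell (median 0.58), among them the complement regulator Cd55 at 2.46 (adjusted p = 0.00418) and Foxp1. Of 13 marginal zone genes 6 rose and 0 fell (median 0.81): the members Cd38, Cr2, Tnfrsf13b, Cd9 and Plac8, and the receptor Notch2, which directs marginal zone development. Dtx1, on the same list, was the one whose TCF-1 cKO libraries lay below WT. Of 11 germinal center genes tested, the repressor Bcl6 rose at 1.07 (adjusted p = 0.029) and the receptor S1pr2 fell at -1.91 (adjusted p = 0.0263), and the median was -0.21. Bcl6 was at 56.6, 50.2 and 47.6 CPM against 26.8, 21.5 and 25, and S1pr2 at 8.4, 4.9 and 14.8 against 27.5, 25.8 and 52.3. Both genes are used by T follicular helper cells too. Among 12 plasma cell genes only Irf4 rose and 0 fell (median 0.03), and the antibody joining chain Jchain was at 282, 151 and 252 against 245, 164 and 277 CPM. Only 4 of 8 early B cell genes passed the filter, of which Il7r, also a T cell gene, rose at 1.21 (adjusted p = 0.0491). The genes of the pre-B receptor, Vpreb1, Vpreb2 and Igll1, were under 1 CPM in every TCF-1 cKO Pre-Tx library.

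The size of the genotype difference went with the base composition of the genes. Over the 35 members the Spearman correlation of the fold change with the GC content of the transcripts was -0.60, and with their length 0.33. Over 17006 genes tested these were -0.17 and 0.12. These correlations are across genes measured in the same 6 libraries, and genes are not independent replicates. Among the members, Bank1 (44.1% GC) and Ms4a1 (40.6%) stood at the upper end and Dtx1 (60.4%) at the lower. Pax5 (56.5%), Tnfrsf13c (53.1%) and Tnfrsf13b (52.5%) rose as well. Over all genes the relation was not steady. With genes in 20 bins of GC content, the median fold change was -1.25 in the lowest bin and 0.07 in bin 2, that of Ms4a1. It was 0.64 in bin 4, that of Bank1, and -0.54 in the highest bin. Relative to the median of genes in the same GC bin, the fold change was 1.84 for Tnfrsf13c, 1.72 for Pax5, 1.49 for Tnfrsf13b and 1.40 for Ms4a1. These were the largest such values among the members that rose. The smallest were 0.35 for Cd9 (from 0.82), 0.38 for Plac8 (from 0.84) and 0.41 for Ly86 (from 0.88). Cd38 went from 1.27 to 0.72 and Cr2 from 1.29 to 0.74. With offsets for GC content, 13 members rose and 0 fell, and 8.87% of all genes were called.

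**Figure D2:**
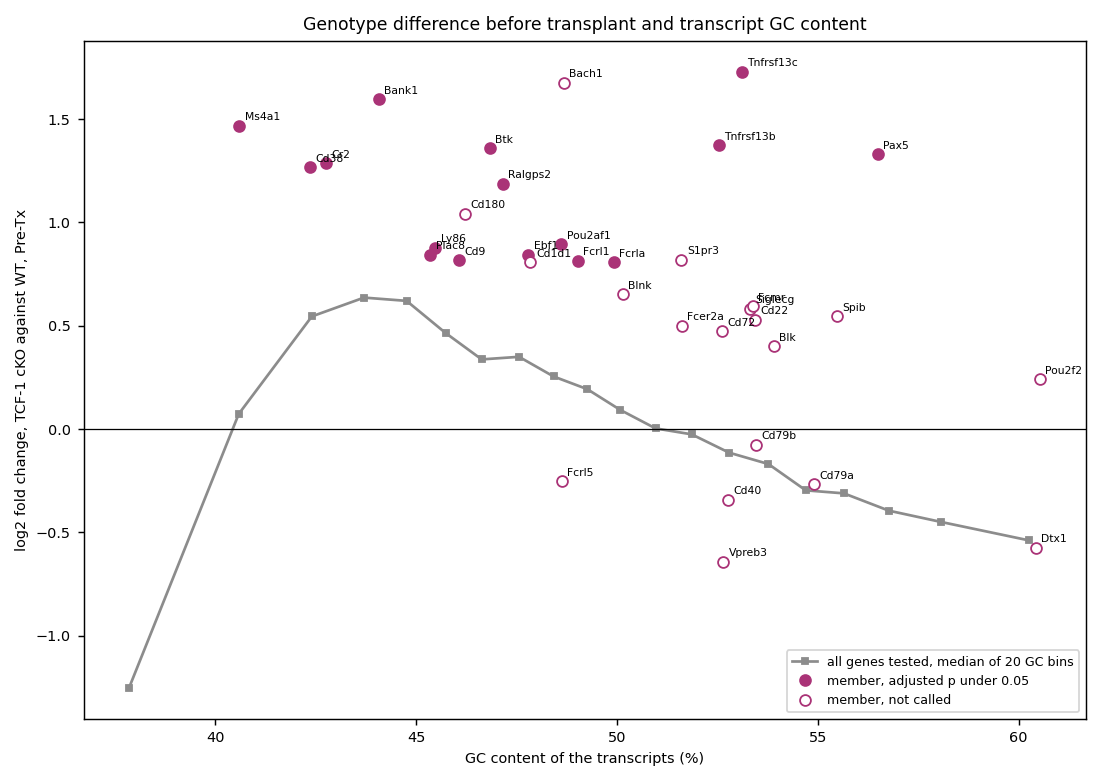
log2 fold change of TCF-1 cKO over WT before transplant against the GC content of each member's transcripts in percent, with filled points for genes that passed the test, open points for the others, and grey squares for the median of all genes in each of 20 GC bins. Members lay mostly above the grey line, with Tnfrsf13c at 1.84 and Vpreb3 at -0.53 relative to the median of its bin.

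Promoters of the members were searched for the letters of 3 B cell factors, since the octamer-binding pair Pou2f2 and Pou2af1, Ebf1 and Spib are members themselves. RefSeq start sites on GRCm38.p6 gave a window of 250 bases before to 50 after the start for 30 of the 35 genes, searched on both strands. The octamer ATGCAAAT, or its reverse complement ATTTGCAT, was in the window of 2 of 30 members, Blnk and Vpreb3, and in 1.97% of 27025 genes. The palindromic EBF1 motif, TCCC and GGGA parted by any 2 bases, was in 1 of 30, Cd22, and in 1.06% of genes. The SPIB motif GAGGAAGT was in 2 of 30, Cd72 and Fcrl1, and in 3.69% of genes. Matches are a description of letters and not of binding. The octamer windows are shown because their genes, Blnk and Vpreb3, lay on opposite sides of WT before transplant, and that of Cd22 as the one match to the EBF1 motif, with the motif in capitals. The octamer starts at position -130 in Blnk (chr19:40994172-40994471, minus strand) and -45 in Vpreb3 (chr10:75948050-75948349, plus strand), and the EBF1 motif at -49 in Cd22 (chr7:30878979-30879278, minus strand), counted from the start site.
Blnk: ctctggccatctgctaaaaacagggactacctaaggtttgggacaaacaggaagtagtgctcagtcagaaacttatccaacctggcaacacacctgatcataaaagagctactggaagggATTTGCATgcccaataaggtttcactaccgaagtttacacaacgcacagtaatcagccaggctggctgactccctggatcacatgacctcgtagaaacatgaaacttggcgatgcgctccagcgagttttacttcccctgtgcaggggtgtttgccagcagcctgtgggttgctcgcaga
Vpreb3: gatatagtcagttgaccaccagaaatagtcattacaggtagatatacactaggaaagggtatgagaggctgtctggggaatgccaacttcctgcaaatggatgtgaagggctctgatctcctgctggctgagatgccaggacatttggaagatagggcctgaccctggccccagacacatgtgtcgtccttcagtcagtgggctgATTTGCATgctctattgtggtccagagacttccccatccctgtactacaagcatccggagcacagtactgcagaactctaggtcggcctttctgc
Cd22: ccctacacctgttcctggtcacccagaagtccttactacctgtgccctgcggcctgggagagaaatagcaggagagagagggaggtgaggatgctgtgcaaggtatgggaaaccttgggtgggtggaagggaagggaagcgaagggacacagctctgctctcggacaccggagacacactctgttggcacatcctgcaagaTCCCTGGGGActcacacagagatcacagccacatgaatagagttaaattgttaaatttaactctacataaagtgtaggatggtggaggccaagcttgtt
The octamer of both genes reads ATTTGCAT on the gene's own strand. Blnk had the higher level in every TCF-1 cKO Pre-Tx library and Vpreb3 in every WT Pre-Tx library. Neither gene was called in the main edgeR test (adjusted p = 0.0523 and 0.0889).

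The next comparisons set the day 7 libraries against those before transplant, within each genotype. Nearly the whole set fell. In WT, 31 of 35 genes fell and 1, Cd9, rose, against 10.4% and 11.6% (22% in all) of the 21434 genes tested. In TCF-1 cKO, 33 fell and 0 rose, against 12.5% and 14.2% (26.7% in all). At an unadjusted p under 0.05, edgeR gave 34 lower and 0 higher in TCF-1 cKO, DESeq2 called 34 lower and 0 higher, and limma voom 33 and 0. Of all genes, DESeq2 called 36.0% and limma voom 28.9% there. The median log2 fold change of the members was -5.02 in WT and -5.34 in TCF-1 cKO, and that of all genes -0.41 and 0.36. The largest falls in WT were those of Fcmr at -11.39 (SE 0.75, adjusted p = 1.6e-08), Cd79a at -10.43 (SE 0.29, adjusted p = 1.81e-13), Blk at -9.35 (SE 0.85, adjusted p = 5.91e-07) and Cd79b at -8.76 (SE 0.41, adjusted p = 1.79e-10). In TCF-1 cKO they were those of Fcmr at -10.64 (SE 0.72, adjusted p = 2.19e-08), Cd79a at -9.74 (SE 0.28, adjusted p = 3.81e-13), Fcrla at -9.54 (SE 1.01, adjusted p = 3.77e-06) and Blk at -9.52 (SE 0.86, adjusted p = 6e-07). Cd79a went from between 2043 and 2781 CPM to between 1.72 and 3.29 CPM. These comparisons share their libraries with the genotype comparisons.

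The smallest changes were in genes that other blood cells use too. In WT the smallest called changes were Dtx1 at -0.85 (SE 0.25, adjusted p = 0.0234), Cd9, which rose by 0.85 (SE 0.23, adjusted p = 0.0121), Plac8 at -1.03 (SE 0.26, adjusted p = 0.00867) and Cd38 at -1.09 (SE 0.21, adjusted p = 0.00137). Not called there were Pou2f2 at 0.08 (adjusted p = 0.833), Bach1 at -0.42 (adjusted p = 0.715) and Cd1d1 at -0.71 (adjusted p = 0.064). Under upper-quartile scaling Cd9 was not called in WT and Cd1d1 fell. In TCF-1 cKO the smallest called changes were Pou2f2 at -0.97 (SE 0.26, adjusted p = 0.0118), Dtx1 at -1.15 (SE 0.25, adjusted p = 0.00398), Plac8 at -1.85 (SE 0.26, adjusted p = 9.02e-05) and Cd1d1 at -1.95 (SE 0.27, adjusted p = 8.11e-05). Bach1 at -1.66 (adjusted p = 0.119) and Cd9 at -0.55 (adjusted p = 0.0768) were not called. Dtx1 in WT lost its call in 8 of 13 alternatives. Among the related lists, 13 of 15 further transcription factors and lineage genes fell in WT and 15 of 15 in TCF-1 cKO, 7 and 8 of 8 follicular genes, 9 and 11 of 13 marginal zone genes, 2 and 5 of 12 germinal center genes, 6 and 6 of 12 plasma cell genes, and 11 and 19 of 20 further receptor signalling genes. Rises in these lists were 2 germinal center genes in TCF-1 cKO, and in WT 1 receptor signalling gene, Cd9 among the marginal zone genes and Prdm1, a regulator of plasma cells. Of the early B cell genes, 2 fell and Il7r rose in WT, and 0 of 7 tested were called in TCF-1 cKO. Of 12 T cell markers, 10 rose in each genotype, and Cd8a and Cd8b1 did not.

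The set that remained at day 7 had another order. Plac8 was highest by TPM in both genotypes, at 315 ± 70.8 in TCF-1 cKO and 231 ± 27.4 in WT (SD, n = 3), which was 40.6% and 34.2% of the TPM of the 35 genes. Cd9 followed with 153 ± 42.9 and 145 ± 24.2 TPM, and Dtx1 with 79.4 ± 11.3 and 105 ± 23.7 TPM. Cd9 and Dtx1 overlapped between libraries in WT only. Of the B cell genes, Cd79b stood at rank 8 of 35 in TCF-1 cKO and rank 11 among WT libraries, and Cd22 at ranks 11 and 9, while others were near what can be counted. Fcmr was at 0.209, 2.16 and 0.75 CPM in TCF-1 cKO and 0.452, 0.846 and 0.0292 in WT. Pax5 was at 0.261, 2.52 and 0.61 against 1.63, 0.231 and 0.0292. A floor of 3 counts corresponds to 0.0754 to 0.157 normalised CPM in the day 7 libraries, so single values of these genes are close to what can be counted.

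**Figure D3:**
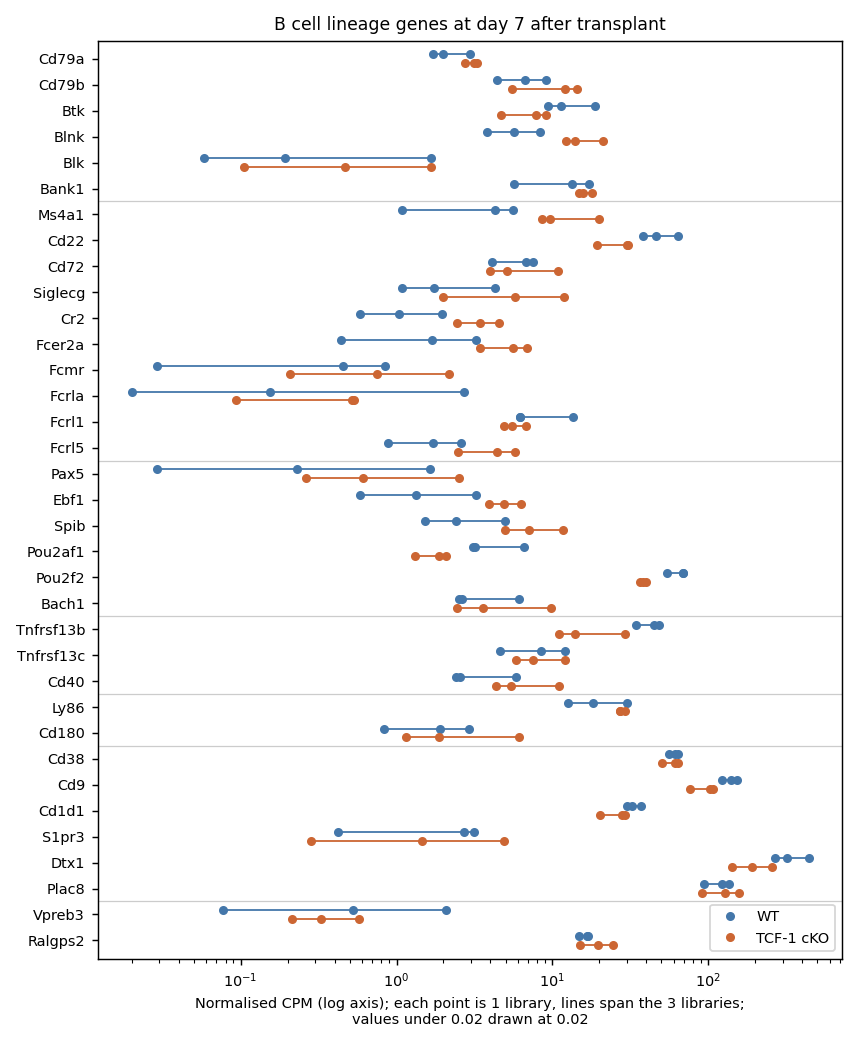
Normalised CPM of the 35 genes at day 7 after transplant on a log axis, where each library is 1 point, a line over the 3 libraries of a group, and values under 0.02 drawn at 0.02. The TCF-1 cKO points lay above all WT points for 5 genes (Blnk, Ms4a1, Cr2, Fcer2a and Ebf1) and below all of them for 8, among them Tnfrsf13b, Cd22, Pou2f2 and Dtx1.

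Between the genotypes at day 7, 1 of the 35 genes fell in TCF-1 cKO and 0 rose, against 3.13% and 3.52% (6.65% in either direction) of the 19287 genes tested. The gene that fell was Tnfrsf13b, at 13.9, 11 and 29.3 CPM in TCF-1 cKO and 34.3, 44.9 and 48.3 in WT, with a fold change of -1.24 (SE 0.36, adjusted p = 0.0473). Its groups did not overlap, and the same gene had risen before transplant. At an unadjusted p under 0.05, 3 members were higher and 5 lower. DESeq2 called 2 higher (Blnk and Ms4a1) and 4 lower (Cd22, Pou2f2, Tnfrsf13b and Dtx1), and limma voom 2 and 2. Of all genes, DESeq2 called 19.6% and limma voom 14.8% in either direction. The median fold change was 0.29 over the members and 0.09 over all genes. Non-overlapping groups were seen above WT in 5 members and below in 8, against 22.6% and 17.5% of all genes. The call of Tnfrsf13b was kept in 6 of 14 alternatives. The fit on all 12 libraries lost it (adjusted p = 0.0675) and called 1 member higher, Blnk, and 0 lower, with 12 higher and 7 lower at an unadjusted p under 0.05. It was also lost without TCF-1 cKO replicate 1, where Dtx1 was called instead, without TCF-1 cKO replicate 2, and without WT replicate 1 or 3. Without WT replicate 2 there were 2 higher and 2 lower calls, with 15.1% of all genes called.

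Both counts of non-overlapping members at day 7 were near the background, so the following values are given as a description of single genes. Blnk was at 12.2, 21.2 and 13.9 CPM in TCF-1 cKO and 3.82, 8.31 and 5.63 in WT, with a fold change of 1.41 (SE 0.47, adjusted p = 0.068). Ms4a1 was at 8.56, 19.8 and 9.66 against 4.27, 5.58 and 1.08, with a fold change of 1.80 (SE 0.61, adjusted p = 0.0701). Both had groups that did not overlap, with TCF-1 cKO higher, but most of their day 7 counts lay on non-coding transcripts. Cr2 was at 2.45, 4.54 and 3.42 against 1.03, 1.96 and 0.583, Fcer2a at 5.58, 6.88 and 3.42 against 1.68, 3.23 and 0.437, and Ebf1 at 4.9, 6.28 and 3.94 against 1.33, 3.23 and 0.583. These 3 were likewise higher in every TCF-1 cKO library, with fold changes of 1.55 (adjusted p = 0.186), 1.57 (adjusted p = 0.165) and 1.56 (adjusted p = 0.162). Counts on olfactory receptor genes, which blood cells are not known to use broadly, moved with these low values. They summed to 4484, 12031 and 6050 CPM in TCF-1 cKO and 1462, 3135 and 1087 in WT. In each genotype replicate 2 was the highest library for that sum and for all 5 genes, and the part of this background in their values was not tested. Cd22 was at 19.2, 30.5 and 29.9 in TCF-1 cKO and 46.3, 64.2 and 38.1 in WT, with a fold change of -0.90 (SE 0.31, adjusted p = 0.0708). Pou2f2 was at 37.9, 36.3 and 39.9 against 68.5, 54.1 and 68.4, with a fold change of -0.74 (SE 0.26, adjusted p = 0.0725). Dtx1 was at 256, 141 and 191 against 266, 318 and 439, with a fold change of -0.80 (SE 0.26, adjusted p = 0.0643). All 3 were lower in every TCF-1 cKO library, though none was called.

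Other members with a lower value in every TCF-1 cKO library at day 7 had the higher value there before transplant. Btk was at 4.64, 7.84 and 9.15 CPM in TCF-1 cKO and 11.4, 18.8 and 9.36 in WT. Pou2af1 was at 1.3, 1.88 and 2.06 against 6.61, 3.19 and 3.09. Cd9 was at 76.3, 107 and 102 against 154, 139.6 and 121, and Cd1d1 at 20.03, 28.1 and 29 against 30.1, 37.1 and 32.3. In these 4 genes, none of them called, the TCF-1 cKO libraries lay below WT, with fold changes of -0.87 (adjusted p = 0.209), -1.29 (adjusted p = 0.214), -0.54 (adjusted p = 0.126) and -0.37 (adjusted p = 0.39). Tnfrsf13c was at 7.51, 12.1 and 5.82 against 12, 8.46 and 4.64, with overlapping groups and a fold change of 0.02 (adjusted p = 0.979). The receptor chains were low in both genotypes. Cd79a was at 3.29, 2.73 and 3.14 in TCF-1 cKO and 1.99, 2.96 and 1.72 in WT. Cd79b was at 5.48, 12 and 14.3 against 9.12, 4.42 and 6.68, with overlap in both. Spib was at 4.96, 11.7 and 7.04 against 2.39, 4.96 and 1.52, and Cd40 at 4.33, 11 and 5.44 against 2.39, 2.54 and 5.8. Neither of these passed, at 1.42 (adjusted p = 0.138) and 0.96 (adjusted p = 0.289). The other members called before transplant overlapped between the genotypes at day 7, Cd38 for example at 61.4, 50.2 and 63.8 against 56.1, 61.4 and 64.

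Related lists at day 7 gave calls in the lower direction alone, where 3.13% of all genes fell and 3.52% rose. Of 20 further receptor signalling genes 4 fell and 0 rose, among them Nfatc1 at -1.25 (adjusted p = 0.0154), Grap at -0.88 (adjusted p = 0.0302) and the phosphatase Ptpn6 at -0.82 (adjusted p = 0.0385). Of 15 further transcription factors and lineage genes, 3 fell and 0 rose, namely the chemokine receptor Cxcr5 at -2.66 (adjusted p = 0.000561), Ikzf3 at -1.23 (adjusted p = 0.0208) and Cd37 at -0.83 (adjusted p = 0.04). Cxcr5 was also the only one of 8 follicular genes that fell. All 6 of these named genes are used by T cells too. Of 13 marginal zone genes S1pr1 fell at -1.17 (adjusted p = 0.0183) besides Tnfrsf13b, of 10 germinal center genes tested Mef2b at -2.98 (adjusted p = 0.046), and of 11 plasma cell genes tested Txndc5 at -0.75 (adjusted p = 0.0456). T cell markers fell as well, 8 of 12, with summed levels of 4587 to 5674 CPM in TCF-1 cKO and 7553 to 10977 CPM in WT. Cd8a, on the same list, was higher in every TCF-1 cKO library, at 14.5, 9.86 and 8.96 CPM against 5.76, 7.27 and 1.22. Erythroid markers rose, 5 of 7, with sums of 1443 to 5384 CPM against 834 to 1541 CPM. The part of either in the members' values was not tested.

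A few genes stood apart at day 7 by the transcripts that held their counts. Before transplant most members were counted on protein-coding transcripts, with a median share of 98.4% in TCF-1 cKO and 97.5% in WT. At day 7 the medians were 94.7% and 94.9%, but 4 genes were under 50% in each genotype: Blnk, Ms4a1 and Siglecg in both, Fcrla in TCF-1 cKO, and Cr2 in WT. For Ms4a1 the coding share went from 96.9% and 93.6% before transplant to 4.31% (40 of 928 counts) and 14.2% (50 of 352 counts) at day 7, in TCF-1 cKO and WT. Its transcript Ms4a1-202, annotated as a retained intron, held 3.50% ± 1.83 and 10.1% ± 7.59 of the gene's TPM before transplant. At day 7 it held 88.5% ± 6.11 in TCF-1 cKO and 86.0% ± 6.44 in WT (SD, n = 3). On coding transcripts alone, Ms4a1 was at 0.939, 0.39 and 0.516 CPM in TCF-1 cKO and 0.503, 1.15 and 0 in WT, which overlapped, and the fold change was 0.38 against 1.80 for the whole gene. Siglecg-205, also a retained intron, held 80.9% ± 6.90 and 66.6% ± 23.0 of the TPM of Siglecg at day 7, and 2.50% ± 0.95 and 3.68% ± 0.81 before transplant. For Blnk, whose transcript Blnk-203 held 34.8% ± 15.4 and 37.5% ± 21.4 at day 7, the coding fold change was 1.76 against 1.41. With protein-coding transcripts only, 32 members could be tested at day 7 and 0 were called in either direction by edgeR, with 5 higher and 2 lower at an unadjusted p under 0.05. Before transplant 11 rose and 1, Dtx1, fell, and 9.22% of all genes were called.

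The exon edges at which the 2 retained-intron transcripts run on are shown because most day 7 counts of these genes rest on such transcripts. Each line gives 60 bases of coding exon in lower case followed by 60 bases of the intron in capitals, on the gene's strand, from the reference genome GRCm38. Ms4a1-202 crosses the edge at chr19:11254395-11254514 on the minus strand, and Siglecg-205 at chr7:43409462-43409581 on the plus strand.
Ms4a1: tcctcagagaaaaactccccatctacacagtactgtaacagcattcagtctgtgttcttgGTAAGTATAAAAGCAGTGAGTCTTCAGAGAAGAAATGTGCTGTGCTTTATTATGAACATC
Siglecg: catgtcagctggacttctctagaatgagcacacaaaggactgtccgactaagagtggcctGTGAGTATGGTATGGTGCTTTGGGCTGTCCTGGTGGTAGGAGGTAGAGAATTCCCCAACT
Bases outside the coding transcripts' exons make up 47.9% of the 2570 bases of Ms4a1-202 and 53.5% of the 3991 bases of Siglecg-205. The rest is shared with coding transcripts, between which the authors' estimation divided the reads.

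**Figure D4:**
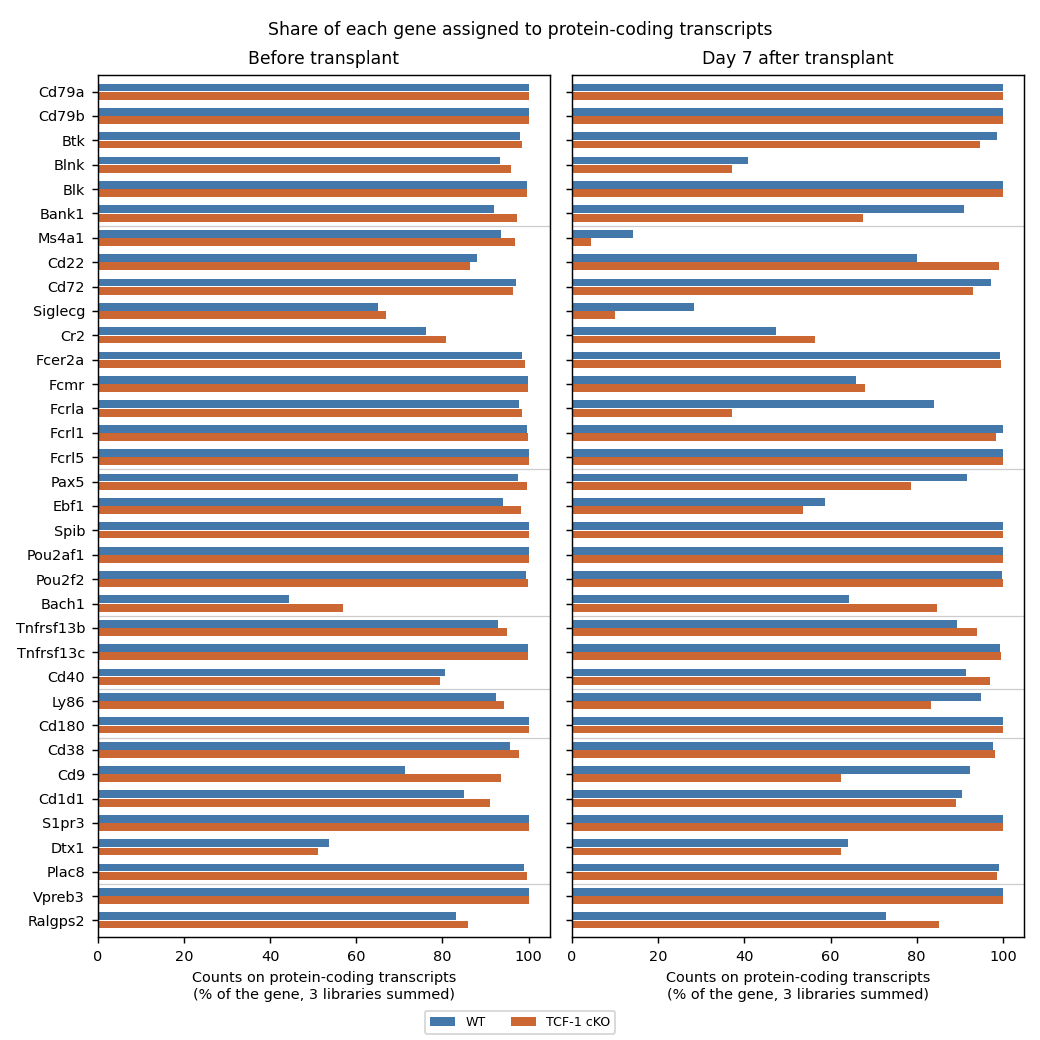
Share of each gene's estimated counts that lay on protein-coding transcripts, in percent, with the 3 libraries of a group summed, before transplant (left) and at day 7 (right). At day 7 the bars of Ms4a1 reached 4.31% in TCF-1 cKO and 14.2% in WT, while those of Cd79a and Cd79b stayed at 100%.

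Finally, the genotype difference at day 7 was compared with that before transplant by the interaction term of a fit over all 12 libraries. The difference was lower after transplant for 10 members and higher for 1, Fcrl5, against 11.5% and 17.1% (28.6% in all) of the 21434 genes tested. The share of members called in either direction was near that of all genes. The median interaction was -0.48 over the members and 0.37 over all genes. Tnfrsf13b had the largest, -2.65 (SE 0.50, adjusted p = 0.00332), from a difference of 1.37 before transplant to -1.24 at day 7. Btk followed at -2.24 (SE 0.50, adjusted p = 0.00626) and Pou2af1 at -2.22 (SE 0.42, adjusted p = 0.00332). These 3 genes were called in all 19 alternatives, and in each the TCF-1 cKO libraries lay above WT before transplant and below at day 7. Tnfrsf13c had -1.70 (SE 0.47, adjusted p = 0.0171), Fcrl1 -1.49 (SE 0.45, adjusted p = 0.0229), Cd22 -1.46 (SE 0.33, adjusted p = 0.00708), and Cd38 -1.36 (SE 0.30, adjusted p = 0.00604). For Cd9 the value was -1.40 (SE 0.32, adjusted p = 0.00712), for Cd1d1 -1.23 (SE 0.38, adjusted p = 0.0248) and for Pou2f2 -1.05 (SE 0.36, adjusted p = 0.0383). Fcrl5 had 1.55 (SE 0.56, adjusted p = 0.0475), with 4.43, 5.78 and 2.49 CPM in TCF-1 cKO and 1.71, 2.58 and 0.875 in WT at day 7. Fcrl5 and Pou2f2 kept their call in 6 of 19 alternatives each. With upper-quartile scaling, which moved the median interaction of all genes to 1.05, 7 members were higher and 3 lower, and without WT Post-Tx replicate 2 there were 5 higher and 12 lower. The receptor chains Cd79a and Cd79b were not called, at 0.69 (adjusted p = 0.0759) and 0.67 (adjusted p = 0.219).

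**Figure D5:**
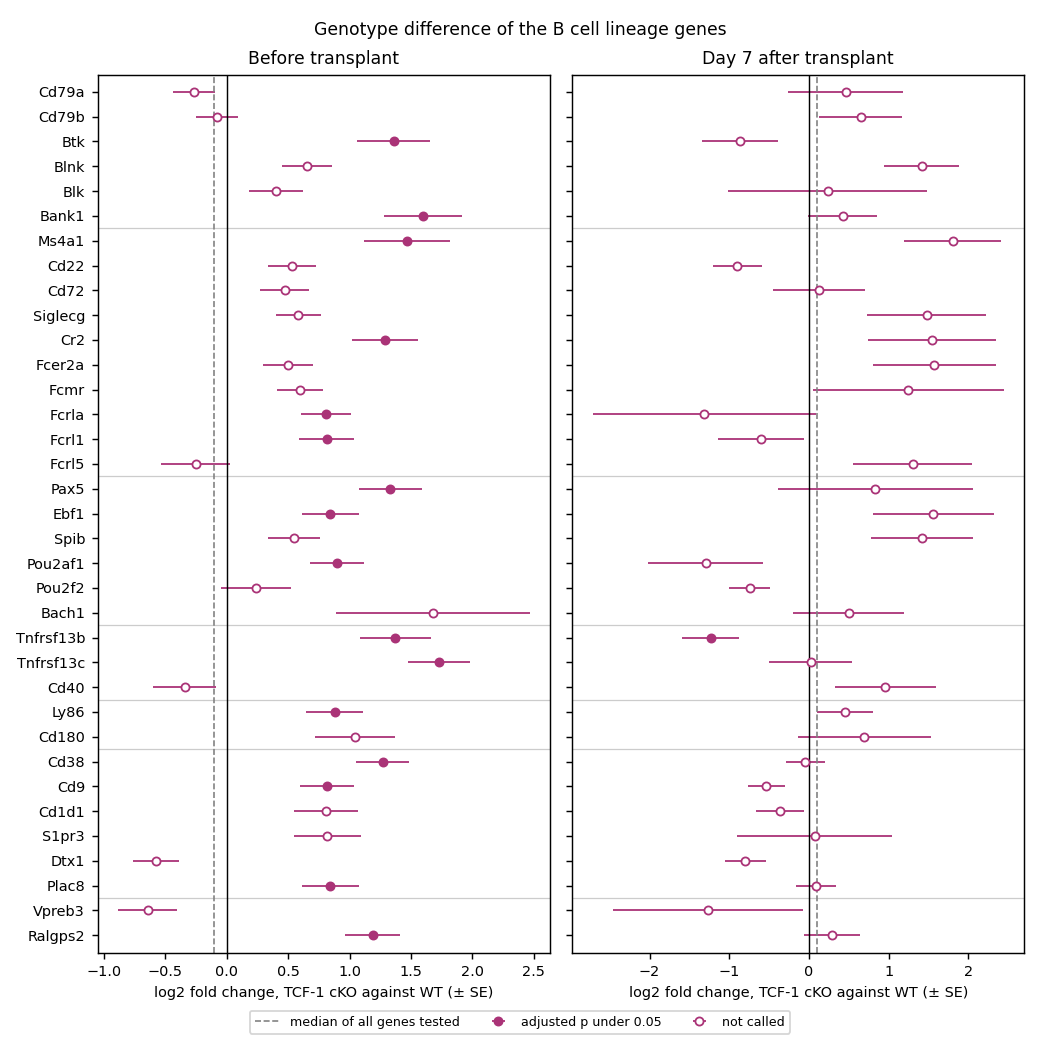
log2 fold change of TCF-1 cKO over WT with its standard error for each of the 35 genes, before transplant (left) and at day 7 (right), with filled points for genes that passed the test, open points for the others and a dashed line at the median of all genes tested. On the left 16 points are filled, all above 0, and in the other panel 1, Tnfrsf13b at -1.24. Under upper-quartile scaling 9 genes were called higher and 3 lower on the left and 0 on the right.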

How the data were processed

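RNA from 12 libraries (total RNA, SMART-Seq HT and Nextera XT, paired-end NovaSeq reads) was quantified by the authors with kallisto 0.46.2 against mouse transcripts (release not given in the sources used here). Processing notes name mm9. The deposited values, per the file headers, are estimated counts (expected counts, which need not be whole) and TPM per transcript. Of 117497 transcripts, 116428 (99.1%) were matched by identifier to GENCODE M21, and 1069 were not, which held 0.282% to 0.386% of the counts. Estimated counts and TPM were summed per gene, and counts were rounded.

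Genotype comparisons were fitted on the 6 libraries of a stage, and the transplant comparisons and the interaction on all 12, with edgeR 4.0.16 (TMM scaling, filterByExpr, quasi-likelihood test, Benjamini-Hochberg adjustment over all genes) in R 4.3.3. The SE was taken from the fold change and its F value. Printed CPM are scaled by the TMM factors of the stage. DESeq2 1.42.0, limma 3.58.1 (voom), upper-quartile scaling, no filter, a replicate block, all 12 libraries, scaling to core B cell genes and leaving out each library were alternatives, and offsets for GC content and protein-coding transcripts only were added after seeing the data. The fits were tested on simulated data. Tables and plots used Python 3.11.15 with pandas 2.3.3 and matplotlib 3.10.9.

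The members and lists were chosen with earlier results of these data known. Values in every library were given for a fixed set of members and for every member called in a genotype comparison or the interaction, the transplant comparisons name the 4 largest and 4 smallest called changes, and each other list names at most 4 called genes. Some genes of these lists are counted but not reported by name here. Replicate numbers did not pair the samples (correlations of -0.27 to 0.25 between libraries of the same number). Promoter sequences came from RefSeq on GRCm38.p6. Other cell types, plasmacytoid and conventional dendritic, monocyte and granulocyte markers among them, were counted. Before transplant 2 of 10 monocyte and macrophage markers, 1 of 7 granulocyte markers and 1 of 7 plasmacytoid dendritic cell markers rose and 0 fell in TCF-1 cKO, and 0 of 6 conventional dendritic cell and 0 of 7 erythroid markers changed.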

Additional observations from a re-analysis of the deposited data

Results flagged for a closer look

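The genotype difference of 11 members differed between the stages, by the interaction term of the edgeR fit over 12 libraries (adjusted p under 0.05). For 10 the difference was lower at day 7 than before transplant: Tnfrsf13b by a log2 value of -2.65, Btk by -2.24, Pou2af1 by -2.22, Tnfrsf13c by -1.70, Fcrl1 by -1.49, Cd22 by -1.46, Cd9 by -1.40, Cd38 by -1.36, Cd1d1 by -1.23 and Pou2f2 by -1.05. For Fcrl5 it was higher, by 1.55. Of all 21434 genes, 11.5% were called lower and 17.1% higher in the interaction (28.6% in all). The share of members called in either direction was near that of all genes. The median interaction was -0.48 over the members and 0.37 over all genes. With upper-quartile scaling 7 members were higher and 3 lower. Groups of 3 libraries were too small for the test of single outlying libraries.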

How the results depend on the processing

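The falls after transplant held throughout, with 30 to 32 members called in WT and 32 to 34 in TCF-1 cKO over all alternatives. Before transplant 0 to 14 of the 35 members were called when 1 library was left out, against 16, and 12 to 22 under the other alternatives. Of all genes, 0.0790% to 14.0% were called when 1 library was left out and 8.87% to 23.9% under the others. At day 7, where 1 member was called, DESeq2 called 6, limma voom 4 and no filter 4, against 19.6%, 14.8% and 6.72% of all genes. Upper-quartile scaling, GC content offsets and protein-coding transcripts only called 0, against 4.14%, 0.187% and 0.946% of all genes. At an unadjusted p under 0.05 these 3 gave 8 higher and 2 lower, 2 and 6, and 5 and 2. Leaving out 1 library gave 0 to 4 members, against 0.0296% to 15.1% of all genes. For the interaction 8 to 17 were called, against 11, and 13.7% to 37.0% of all genes were called in these alternatives. The genotype fold change before transplant turned for Cd79a with GC content offsets (0.0372) and for Cd79b with GC content offsets (0.0906), with no filter (0.0005) and without WT Pre-Tx replicate 2 (0.0314, with a lowest value of -0.1343 when another library was left out). Without a design that pairs the libraries, the replicate block called 18 members before transplant, 6 at day 7, 32 and 33 for the transplant in WT and TCF-1 cKO, and 10 for the interaction. The shares of all genes called with the block were 12.1%, 16.9%, 19.3%, 21.8% and 23.9% in the same order. Depth limits the day 7 values, where a floor of 3 counts is 0.0754 to 0.157 normalised CPM. The cause of these shifts was not tested.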
